A study of Mus musculus with 24 samples.

Results

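The 10 transcription factor genes described here define mammary basal cells or drive epithelial-to-mesenchymal transition, and were followed in chromatin of sorted mouse mammary basal cells. They were Trp63, Sox9, Sox10, Snai1, Snai2, Twist1, Twist2, Zeb1, Zeb2 and Prrx1, taken by gene symbol, and all 10 were found among the 27080 genes counted. The data are gene-level read counts of ChIP-seq for H3K4me3, a mark of active or poised gene starts, and for H3K27me3, which Polycomb proteins deposit at repressed genes. Chromatin came from mammary glands of untreated C57BL/6 females. Basal cells were split by flow sorting on Lgr5 and Tspan8 into 4 subpopulations, Lgr5+Tspan8hi, Lgr5+Tspan8-, Lgr5-Tspan8hi and Lgr5-Tspan8-, with 2 libraries of each mark per subpopulation, 16 in all. The age of the mice, the number pooled per library and the reagent or allele that read out Lgr5 are unstated in the labels used here. Nothing says that the 2 libraries of a subpopulation came from separate mice, so the p-values rest on the spread between libraries, which may be technical.

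Mammary basal cells are contractile, keratin 5- and keratin 14-expressing cells that surround the milk-producing luminal layer. Trp63 encodes p63, the factor that holds the basal programme, and Snai2 (Slug) and Sox9 are known for sustaining mammary stem and progenitor activity. Epithelial-to-mesenchymal transition is the loss of junctions and gain of motility that Snail, Zeb and Twist factors drive by repressing junction genes such as that of E-cadherin, while the miR-200 family and miR-205 restrain Zeb1 and Zeb2. H3K4me3 and H3K27me3 can also lie together at gene starts, a state called bivalent. In bulk chromatin, both marks on one gene copy and a mixture of cells with one mark each cannot be told apart, and neither can fewer marked cells and less mark per cell.

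Of the 10 genes, 5 have a promoter sequence in the RefSeq table used here (GRCm38.p6, 250 bases before to 50 after a transcript start), and these are Snai1, Twist1, Twist2, Prrx1 and Zeb2. They are shown because H3K4me3 in mammals lies mainly at starts rich in CpG dinucleotides, and these genes differ widely in that respect. CpG dinucleotides are in capitals and the sequences run 5′ to 3′ on the gene's strand. The windows are chr2:167537945-167538244 (plus strand) for Snai1, chr12:33957421-33957720 (plus) for Twist1, chr1:91801211-91801510 (plus) for Twist2 and chr1:163313601-163313900 (minus) for Prrx1, at a start 1.5 kb inside its outermost one. For Zeb2, on the minus strand of chromosome 2, the window of the outermost start is chr2:45117393-45117692 and that of the innermost start is chr2:45110228-45110527.
Snai1: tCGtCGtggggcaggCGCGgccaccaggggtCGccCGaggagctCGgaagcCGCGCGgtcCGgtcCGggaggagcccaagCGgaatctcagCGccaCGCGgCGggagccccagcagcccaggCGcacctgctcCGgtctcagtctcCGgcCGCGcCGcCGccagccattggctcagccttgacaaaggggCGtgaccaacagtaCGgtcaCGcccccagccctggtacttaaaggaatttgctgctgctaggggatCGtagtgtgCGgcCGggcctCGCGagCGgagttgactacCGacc
Twist1: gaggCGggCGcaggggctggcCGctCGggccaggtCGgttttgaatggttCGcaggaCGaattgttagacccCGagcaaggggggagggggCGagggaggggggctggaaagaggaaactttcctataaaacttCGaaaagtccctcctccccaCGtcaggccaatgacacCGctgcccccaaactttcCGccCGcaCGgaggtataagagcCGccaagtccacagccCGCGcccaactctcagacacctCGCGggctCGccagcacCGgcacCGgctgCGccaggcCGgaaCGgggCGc
Twist2: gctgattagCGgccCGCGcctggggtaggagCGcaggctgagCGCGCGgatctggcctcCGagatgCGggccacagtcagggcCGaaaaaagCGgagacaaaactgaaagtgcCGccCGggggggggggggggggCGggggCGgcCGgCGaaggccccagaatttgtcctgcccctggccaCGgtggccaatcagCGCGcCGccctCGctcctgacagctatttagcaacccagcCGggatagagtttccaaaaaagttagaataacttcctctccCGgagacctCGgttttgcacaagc
Prrx1: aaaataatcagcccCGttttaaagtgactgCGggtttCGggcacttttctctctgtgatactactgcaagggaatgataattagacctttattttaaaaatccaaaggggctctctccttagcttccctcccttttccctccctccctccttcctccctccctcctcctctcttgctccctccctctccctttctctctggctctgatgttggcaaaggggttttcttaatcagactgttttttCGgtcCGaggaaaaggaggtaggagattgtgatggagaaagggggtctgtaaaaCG
Zeb2, outermost start: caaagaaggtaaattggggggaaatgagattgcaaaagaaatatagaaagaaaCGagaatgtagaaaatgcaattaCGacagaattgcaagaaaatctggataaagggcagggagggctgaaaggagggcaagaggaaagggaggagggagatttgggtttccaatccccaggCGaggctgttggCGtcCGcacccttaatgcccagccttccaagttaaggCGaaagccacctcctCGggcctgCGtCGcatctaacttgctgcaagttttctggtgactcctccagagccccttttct
Zeb2, innermost start: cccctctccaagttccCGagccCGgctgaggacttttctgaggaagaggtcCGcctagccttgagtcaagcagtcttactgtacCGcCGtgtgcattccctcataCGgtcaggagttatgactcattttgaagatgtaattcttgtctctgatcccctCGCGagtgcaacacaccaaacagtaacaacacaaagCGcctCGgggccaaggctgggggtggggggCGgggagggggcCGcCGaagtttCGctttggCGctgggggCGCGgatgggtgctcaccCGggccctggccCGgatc
The windows hold 34 CpGs at Snai1, 27 at Twist1 and 25 at Twist2, against a median of 7 over all 32851 promoters in the table. Prrx1 holds 6, the outermost Zeb2 start 9 and the innermost 19. The 6-base E-box bound by Snail and Zeb factors, CAGGTG or its reverse complement CACCTG, was searched on both strands and occurs once, in the Snai1 window. That motif is found in 20.2% of all promoters in the table. The TATA element TATAAA, searched on both strands, occurs once, in the Twist1 window, and in 13.6% of all promoters.

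The depth of the libraries bears on every value below. Total counts ran from 1472251 to 4740371 reads for H3K4me3 and from 2639862 to 6972189 for H3K27me3. Values are given as CPM, the count scaled to the library's total. Pairs of genes whose starts lie within 1 kb of each other had near-equal H3K4me3 counts (median ratio 1.01 over 1670 pairs), as counts taken in a window around the outermost annotated start would, and H3K4me3 is compared between genes per window. For H3K27me3 the same ratio was 4.19 over 1152 pairs and the count grew with gene length (Spearman's rho 0.797 across genes, which are not independent replicates), so it is compared between genes per kb. The effective depth, the percent of a library's total needed by independent reads to miss as many genes as the library missed, was 34.6% ± 12.9 in Tspan8hi and 79.3% ± 20.4 in Tspan8- libraries for H3K4me3 (SD, n = 4 each; p = 0.0286 in a two-sided exact permutation test). For H3K27me3 it was 54.1% ± 15.5 in Tspan8hi and 75.9% ± 3.51 in Tspan8- libraries (SD, n = 4 each; p = 0.0286 in the same exact permutation test, the smallest possible), and the lowest library in both marks was Lgr5-Tspan8hi replicate 1. This difference runs alongside every Tspan8 comparison below, and its part in them was not tested. At the sorting gene Tspan8, H3K4me3 averaged 79.5 ± 8.29 CPM in Tspan8hi and 25.0 ± 3.93 CPM in Tspan8- libraries (SD, n = 4 each), without overlap. At Lgr5, the H3K4me3 ranges of Lgr5+ and Lgr5- libraries overlapped (86.7 ± 17.3 and 69.4 ± 12.2 CPM, SD, n = 4 each). Its H3K27me3 was 114, 62.8, 63.3 and 59.7 CPM in Lgr5+ and 113, 99.2, 162 and 119 CPM in Lgr5- libraries. For Lgr5 this gave -0.72 ± 0.14 on the log2 scale (edgeR adjusted p = 0.0536), and H3K27me3 at Lgr5 passed for any difference among the 4 subpopulations (edgeR adjusted p = 0.0144).

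The basal keratin genes set the scale, at 139 CPM of H3K4me3 for Krt5 and 130 CPM for Krt14 on average over the 8 libraries. Against this, the 10 factors formed 3 levels of H3K4me3. Sox9 (155 CPM), Sox10 (142 CPM) and Snai2 (140 CPM) were marked at the level of the keratin genes and lay at percentiles 98.9, 98.2 and 98.0 of all genes. Zeb1 (71.0 CPM), Prrx1 (62.1 CPM), Twist1 (49.4 CPM) and Twist2 (41.8 CPM) lay between percentiles 60.0 and 80.0. Snai1 (16.5 CPM), Zeb2 (9.32 CPM) and Trp63 (1.76 CPM) were below the median gene, which had 22.5 CPM.

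**Figure D1:**
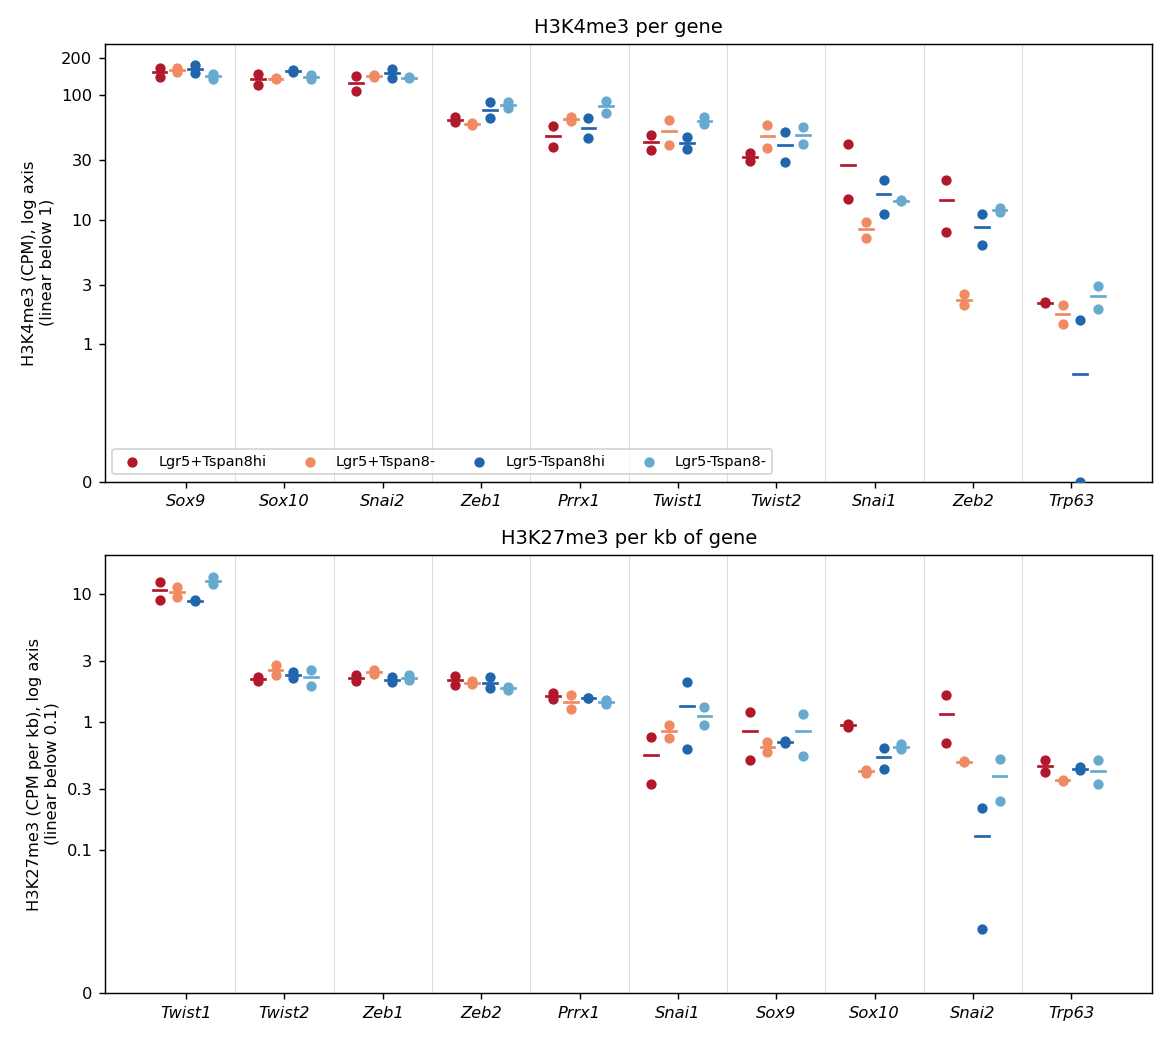
H3K4me3 in CPM (top) and H3K27me3 in CPM per kb of gene (bottom) at the 10 factor genes, ordered from high to low. Each point is 1 library, bars are the mean of the 2 libraries of a subpopulation, and the vertical axes are logarithmic above 1 CPM and 0.1 CPM per kb and linear below. Sox9, Sox10 and Snai2 lead for H3K4me3 and Twist1 leads for H3K27me3, while Trp63 is lowest for both.

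The order of the H3K4me3 levels was compared between neighbours over the 8 libraries with a paired exact two-sided permutation test, adjusted over 9 pairs. Neighbours were chosen by their means in these same libraries, and libraries of a subpopulation may be technical repeats. The p-values of this test, here and for H3K27me3 below, are therefore descriptions and do not support the order. Sox9 exceeded Sox10 in 7 of 8 libraries (adjusted p = 0.0469), whereas Sox10 exceeded Snai2 in 4 of 8 (adjusted p = 0.469). Snai2 exceeded Zeb1 in 8 of 8 libraries (adjusted p = 0.0352), the widest step among the upper ranks. Zeb1 and Prrx1 (adjusted p = 0.229) and Prrx1 and Twist1 (adjusted p = 0.0603) did not differ beyond their spread. Twist1 exceeded Twist2 in 7 of 8 (adjusted p = 0.0422), Twist2 exceeded Snai1 in 7 of 8, Snai1 exceeded Zeb2 in 8 of 8 and Zeb2 exceeded Trp63 in 7 of 8 libraries (adjusted p = 0.0352 for each of the last 3).

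H3K27me3 ordered the factors differently. Twist1 carried 10.6 CPM per kb, at percentile 98.9 of all genes, and every library had at least 8.81 CPM per kb. Twist2 (2.32 CPM per kb), Zeb1 (2.26), Zeb2 (2.00) and Prrx1 (1.5) followed, between percentiles 74.5 and 85.8. Snai1 (0.967), Sox9 (0.762), Sox10 (0.634), Snai2 (0.540) and Trp63 (0.414 CPM per kb) lay near or below the median gene at 0.602 CPM per kb. Olfactory receptor genes, which are silent outside the nose, had a median of 1.27 CPM per kb (1110 genes), and Snai1, Sox9, Sox10, Snai2 and Trp63 each had less than that. The 90th percentile of olfactory receptor genes was 2.75 CPM per kb, and of the factors only Twist1 exceeded it. In the same paired test Twist1 exceeded Twist2, Zeb1 exceeded Zeb2 and Zeb2 exceeded Prrx1 in 8 of 8 libraries (adjusted p = 0.0234 each over 9 pairs). The other 6 neighbours in the order did not differ beyond their spread (adjusted p from 0.0879 to 0.586).

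Set side by side, the marks divide the factors. H3K4me3 and H3K27me3 per kb were both above the median gene at Sox9, Sox10, Twist1, Twist2, Zeb1 and Prrx1, 6 of the 10, a combination held by 10.7% of the 25185 genes with a known length. Twist1, Twist2 and Zeb1 were also in the upper quartile of H3K27me3 per kb, as were 9.04% of the 12592 genes with H3K4me3 above the median. Of the 6, only Twist1 exceeded the 90th percentile of olfactory receptor genes (2.75 CPM per kb), and Sox9 and Sox10 were below the olfactory receptor median (1.27). Snai2 had H3K4me3 above and H3K27me3 below the median, the class of 39.3% of genes. Snai1 and Zeb2 had the reverse, and Trp63 was below the median for both. With H3K27me3 taken per gene in place of per kb, 4 of the 10 had both marks above the median (Twist1, Twist2, Zeb1 and Prrx1), against 24.3% of genes, and Sox9 and Sox10 were below it for H3K27me3. These classes were chosen with the values in view and are descriptions.

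**Figure D2:**
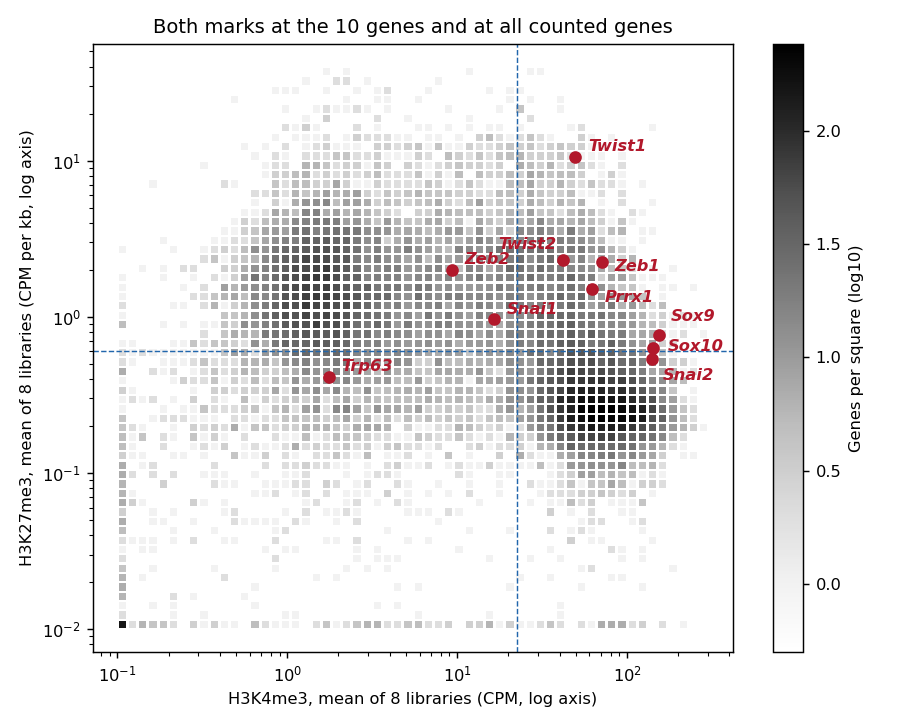
Mean H3K4me3 (horizontal, CPM) against mean H3K27me3 (vertical, CPM per kb), both over 8 libraries and on logarithmic axes, for the 10 factors (red) and all counted genes (grey squares, darker with more genes; genes below an axis limit sit in its edge squares). Dashed lines are the medians of all genes, 22.5 CPM and 0.602 CPM per kb. Twist1 at 49.4 CPM and 10.6 CPM per kb stands at the upper edge, and Sox9, Sox10 and Snai2 at the right edge.

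Trp63 (Entrez gene 22061, chr16:25683763-25892088, plus strand, GRCm38.p6) had almost no H3K4me3 in these counts. Its H3K4me3 count was 5 and 7 reads for Lgr5+Tspan8hi, 4 and 3 for Lgr5+Tspan8-, 0 and 4 for Lgr5-Tspan8hi and 5 and 9 for Lgr5-Tspan8- libraries. The library without a read allows up to 1.34 CPM (3 reads), which covers counting error only and takes all reads as independent. Its effective depth was 17.2%, the lowest for H3K4me3, so the limit is too low. The mean of 1.76 CPM lay within the range of olfactory receptor genes, whose median was 1.30 CPM and 90th percentile 2.09 CPM. The gene has annotated starts at 2 places, and 5 of its curated transcripts begin 118 kb inside the gene. Those inner starts give the short p63 form without the amino-terminal activation domain, which is the main form in basal epithelia. The H3K4me3 count is a reading of the outermost start, as far as the counts of neighbouring genes show, and H3K4me3 at the inner starts was not measured here.

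H3K27me3, counted over the whole gene, had 105 and 84.7 CPM at Trp63 for Lgr5+Tspan8hi, 72.6 and 73.5 for Lgr5+Tspan8-, 92.1 and 87.9 for Lgr5-Tspan8hi and 106 and 68.1 CPM for Lgr5-Tspan8- libraries. Spread over 208 kb this is 0.414 CPM per kb, at percentile 41.8. The Tspan8hi and Tspan8- ranges overlapped and the log2 fold change was 0.17 ± 0.13 (SE, 95% interval -0.09 to 0.42, edgeR adjusted p = 0.631). Trp63 fell under the count filter for H3K4me3 and was not tested there.

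**Figure D3:**
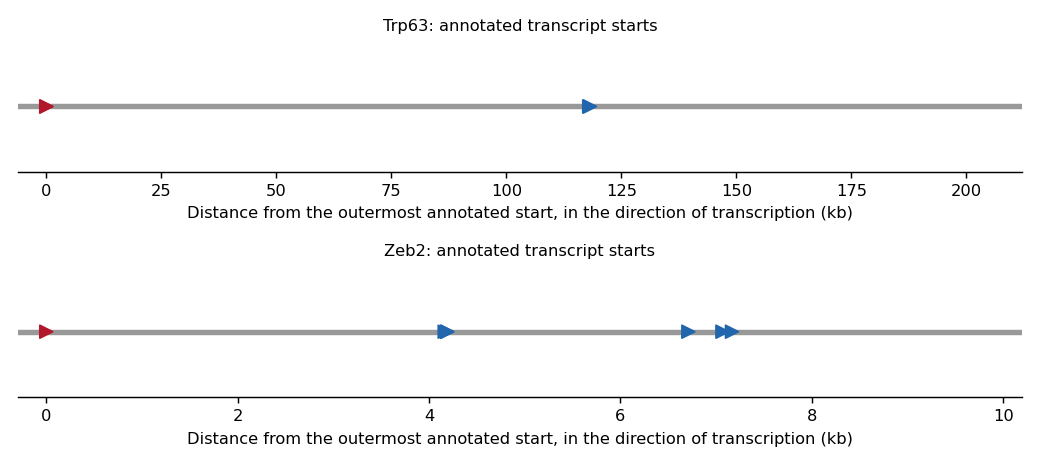
Annotated RefSeq transcript starts of Trp63 (top) and Zeb2 (bottom), as distance in kb from the outermost start in the direction of transcription. The outermost start is red and inner starts are blue, at 118 kb in Trp63 and from 4.16 to 7.17 kb in Zeb2.

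Snai2 (Entrez 20583, chr16:14705852-14709395, plus strand), a zinc finger repressor that belongs to the basal and stem-cell programme, had high H3K4me3 throughout. It stood at 108 and 144 CPM for Lgr5+Tspan8hi, 146 and 140 for Lgr5+Tspan8-, 163 and 138 for Lgr5-Tspan8hi and 141 and 138 CPM for Lgr5-Tspan8- libraries. Only Lgr5+Tspan8hi replicate 1 was clearly lower, and Krt5 (96.3 CPM) and Krt14 (95.1 CPM) were at their lowest there too. Its log2 fold change was -0.02 ± 0.12 for Tspan8hi against Tspan8- (95% interval -0.26 to 0.21, edgeR adjusted p = 0.994) and -0.10 ± 0.12 for Lgr5+ against Lgr5- cells (-0.33 to 0.13, edgeR adjusted p = 0.999).

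H3K27me3 at Snai2 was sparse, from 1 to 34 reads per library. It was 5.77 and 2.44 CPM for Lgr5+Tspan8hi, 1.75 and 1.73 for Lgr5+Tspan8-, 0.758 and 0.159 for Lgr5-Tspan8hi and 1.84 and 0.861 CPM for Lgr5-Tspan8- libraries. Lgr5+ libraries averaged 2.92 ± 1.93 CPM and Lgr5- libraries 0.905 ± 0.698 CPM (SD, n = 4 each), and 1 Lgr5- library lay within the Lgr5+ range. A log2 fold change of 1.92 ± 0.68 had an unadjusted p of 0.00958 in edgeR's quasi-likelihood test but did not pass over all genes (adjusted p = 0.514). The Lgr5-by-Tspan8 interaction, 3.03 ± 1.38 on the log2 scale, did not pass either (edgeR adjusted p = 0.883), and was 2.00 without Lgr5-Tspan8hi replicate 2.

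Sox9 (Entrez 20682, chr11:112782210-112787757, plus strand), an HMG-box factor of mammary progenitors, was the most heavily H3K4me3-marked of the 10. Its values were 142 and 167 CPM for Lgr5+Tspan8hi, 166 and 154 for Lgr5+Tspan8-, 177 and 151 for Lgr5-Tspan8hi and 136 and 149 CPM for Lgr5-Tspan8- libraries, with all groups overlapping. For Tspan8 the log2 fold change was 0.08 ± 0.11 (95% interval -0.14 to 0.31, edgeR adjusted p = 0.972) and for Lgr5 it was 0.05 ± 0.11 (-0.18 to 0.27, adjusted p = 1). Its H3K27me3 ranged from 2.81 to 6.62 CPM, on 10 to 39 reads.

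Sox10 (Entrez 20665, chr15:79154913-79164490, minus strand), a relative of Sox9 known from neural crest and from mammary stem-like cells, stood close to it. H3K4me3 was 122 and 149 CPM for Lgr5+Tspan8hi, 135 and 138 for Lgr5+Tspan8-, 159 and 154 for Lgr5-Tspan8hi and 135 and 146 CPM for Lgr5-Tspan8- libraries. Between Tspan8hi and Tspan8- it differed by 0.08 ± 0.12 on the log2 scale (95% interval -0.14 to 0.31, edgeR adjusted p = 0.972), and between Lgr5+ and Lgr5- cells by -0.11 ± 0.12 (-0.34 to 0.12, edgeR adjusted p = 0.999). The non-coding gene Gm10863 starts within 2 kb on the other strand, and reads at the shared start cannot be assigned to one of them. Schwann and neural marker genes, the other cells that use Sox10, had summed H3K4me3 of 589 to 648 CPM over 12 genes in Tspan8hi and 582 to 672 CPM in Tspan8- libraries.

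H3K27me3 at Sox10 was 9.34 and 8.81 CPM for Lgr5+Tspan8hi, against 4.08 and 3.84 CPM for Lgr5+Tspan8- libraries. In Lgr5- cells it was 6.06 and 4.13 CPM in Tspan8hi and 6.45 and 5.88 CPM in Tspan8- libraries. The Lgr5+Tspan8hi pair was above the other 6 libraries. The interaction was 1.53 ± 0.61 on the log2 scale with an unadjusted p of 0.018, and did not pass over all genes (edgeR adjusted p = 0.819).

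Snai1 (Entrez 20613, chr2:167538195-167542814, plus strand) encodes Snail, the classical repressor of E-cadherin. It had 40.7 and 14.7 CPM of H3K4me3 for Lgr5+Tspan8hi, 7.15 and 9.51 for Lgr5+Tspan8-, 21.0 and 11.0 for Lgr5-Tspan8hi and 14.0 and 14.3 CPM for Lgr5-Tspan8- libraries. Lgr5+Tspan8hi replicate 1 was far above the others, and both Lgr5+Tspan8- libraries were lowest. Tspan8hi libraries averaged 21.8 ± 13.3 CPM and Tspan8- libraries 11.3 ± 3.51 CPM (SD, n = 4 each), overlapping. The log2 fold change of 0.96 ± 0.33 had an unadjusted p of 0.00452 and an edgeR adjusted p of 0.607, and without Lgr5+Tspan8hi replicate 1 it was 0.53 (unadjusted p = 0.178, adjusted p = 0.941). The level is low for so CpG-rich a promoter: among the 3127 genes whose promoter, taken at the most CpG-rich start listed, holds 30 or more CpGs, 5.28% had less H3K4me3 than Snai1 and the median was 78.2 CPM.

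Zeb2 (Entrez 24136, chr2:44983512-45117442, minus strand), a zinc finger and homeobox repressor, also had its highest H3K4me3 in Lgr5+Tspan8hi replicate 1. H3K4me3 was 20.8 and 7.97 CPM for Lgr5+Tspan8hi, 2.50 and 2.04 for Lgr5+Tspan8-, 11.2 and 6.26 for Lgr5-Tspan8hi and 12.3 and 11.6 CPM for Lgr5-Tspan8- libraries, on 3 to 55 reads. Within Lgr5+ cells the Tspan8hi libraries lay above the Tspan8- ones, and within Lgr5- cells they lay below them. For Tspan8 the log2 fold change was 1.08 ± 0.47 (unadjusted p = 0.0233, edgeR adjusted p = 0.781), and 0.67 without Lgr5+Tspan8hi replicate 1. The interaction was 3.02 ± 0.93 on the log2 scale (unadjusted p = 0.00164) and did not pass over all genes (edgeR adjusted p = 1). Without Lgr5+Tspan8hi replicate 1 the interaction was 2.22 (unadjusted p = 0.041, adjusted p = 1).

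As far as neighbouring genes show, the window counted for Zeb2 lies at its outermost start, while 6 other annotated starts lie 4.16 to 7.17 kb inside. Zeb2os, a non-coding gene on the opposite strand that lies among those inner starts (chr2:45111138-45114087), had 48.9 CPM of H3K4me3 on average (51.8 and 37.7 for Lgr5+Tspan8hi, 41.5 and 52.3 for Lgr5+Tspan8-, 59.3 and 42.6 for Lgr5-Tspan8hi, 46.1 and 59.5 for Lgr5-Tspan8-). Its H3K27me3 of 8.47 CPM per kb was at percentile 98.3. If H3K4me3 was counted at its outermost start, the Zeb2os value was read at chr2:45111138. That place is nearer the inner Zeb2 starts from 45110277 to 45110733, which Zeb2os does not span. The inner starts that it does span, from 45113252 to 45113279, lie further away. Zeb2 itself had 2.00 CPM per kb of H3K27me3 over its 134 kb.

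Other cell types of the gland were checked beside Snai1 and Zeb2, since endothelial cells and fibroblasts also use these genes. The summed H3K4me3 of 12 endothelial marker genes was 255 CPM in Lgr5+Tspan8hi replicate 1, against 150 to 211 CPM in the other 7 libraries. Over Tspan8hi libraries it ranged from 150 to 255 CPM and over Tspan8- libraries from 158 to 211 CPM. Of the 12 genes, 7 were at their highest in that library and 1, the claudin gene Cldn5, at its lowest. There Cdh5, the endothelial cadherin, had 17.0 CPM (3.13 to 9.81 CPM elsewhere) and Tek, the angiopoietin receptor, 17.4 CPM (4.02 to 10.5 elsewhere). Ptprc, the pan-leukocyte gene, had 11.0 CPM there and 0.715 to 4.22 CPM elsewhere, but it was 1 of only 2 immune genes of 12 at their highest in that library, and 2 others, Csf1r and Cd79a, were at 0 there. The sum of the 12 immune genes was 58.6 CPM in that library, 50.5 to 65.0 CPM over Tspan8hi and 49.3 to 74.1 CPM over Tspan8- libraries. None of the endothelial or immune genes was at 0 in all libraries. Their part in the Snai1 and Zeb2 values was not tested.

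**Figure D4:**
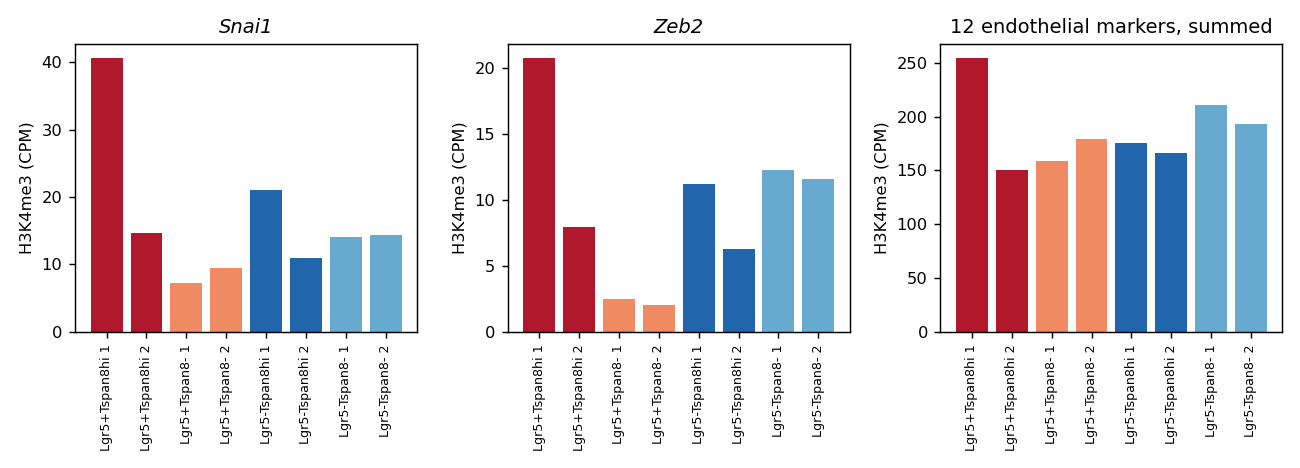
H3K4me3 in CPM at Snai1, at Zeb2 and summed over 12 endothelial marker genes, 1 bar per library (2 replicates of each subpopulation, axes from 0). Lgr5+Tspan8hi replicate 1 is highest in all 3 panels, at 40.7, 20.8 and 255 CPM.

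Zeb1 (Entrez 21417, chromosome 18, plus strand), the relative of Zeb2, was more evenly marked. H3K4me3 was 60.7 and 66.5 CPM for Lgr5+Tspan8hi, 58.3 and 59.8 for Lgr5+Tspan8-, 87.9 and 66.1 for Lgr5-Tspan8hi and 79.4 and 89.2 CPM for Lgr5-Tspan8- libraries. Lgr5+ libraries averaged 61.3 ± 3.63 CPM and Lgr5- libraries 80.6 ± 10.6 CPM (SD, n = 4 each), with an overlap of 1 library. The log2 fold change was -0.39 ± 0.15 (95% interval -0.68 to -0.09), with an unadjusted p of 0.0105 and an edgeR adjusted p of 0.926. Gm10125, a non-coding gene on the opposite strand, starts within 2 kb and had 60.4 to 95.0 CPM, so the value belongs to the shared start.

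Zeb1 carried the largest H3K27me3 count of the 10. Over the gene it was 388 and 426 CPM for Lgr5+Tspan8hi, 471 and 435 for Lgr5+Tspan8-, 414 and 376 for Lgr5-Tspan8hi and 392 and 427 CPM for Lgr5-Tspan8- libraries.

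The microRNAs printed here are the known restraint on Zeb1 and Zeb2. Their genes had more H3K4me3 than the outermost start of Zeb2 (9.32 CPM). Zeb2os, which starts among the inner Zeb2 starts, had 48.9 CPM, which is more than Mir429 or Mir203 had. The RefSeq mature sequences (GRCm38.p6) follow with the seed, bases 2 to 8, in capitals.
miR-200b-3p: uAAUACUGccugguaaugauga
miR-200c-3p: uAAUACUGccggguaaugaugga
miR-429-3p: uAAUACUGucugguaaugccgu
miR-200a-3p: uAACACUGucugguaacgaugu
miR-141-3p: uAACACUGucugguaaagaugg
miR-205-5p: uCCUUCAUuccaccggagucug
The members fall into 3 seed groups, with miR-200b, miR-200c and miR-429 sharing one, miR-200a and miR-141 another, and miR-205 a seed of its own. H3K4me3 averaged 152 CPM at Mir205, 105 at Mir200b, 102 at Mir200c and 101 CPM at Mir141. Mir200a had 68.9, Mir429 43.4 and Mir203, a further microRNA gene of epithelia, 41.6 CPM. Mir200c and Mir141 lie side by side on chromosome 6, as Mir200b, Mir200a and Mir429 do on chromosome 4, so values within a cluster may share reads, which was not measured. None of the 7 microRNA genes passed in any H3K4me3 comparison, with a median log2 fold change of -0.01 for Tspan8 (all genes -0.0021) and -0.12 for Lgr5 (all genes 0.0034). Their summed H3K27me3 was at most 1.58 CPM in any library, and none had enough reads for the H3K27me3 test. H3K27me3 counts grew with gene length and microRNA genes are very short, so this low sum does not show that the mark was absent there.

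Twist1 (Entrez 22160, chr12:33957671-33959831, plus strand), a basic helix-loop-helix factor of mesenchyme, carried both marks in every library. H3K4me3 was 48.0 and 36.2 CPM for Lgr5+Tspan8hi, 39.7 and 63.2 for Lgr5+Tspan8-, 37.0 and 46.1 for Lgr5-Tspan8hi and 58.4 and 66.7 CPM for Lgr5-Tspan8- libraries. H3K27me3 was 19.2 and 26.8 CPM for Lgr5+Tspan8hi, 24.3 and 20.4 for Lgr5+Tspan8-, 19.3 and 19.0 for Lgr5-Tspan8hi and 29.0 and 25.7 CPM for Lgr5-Tspan8- libraries. Both Lgr5-Tspan8- libraries were high for both marks. The H3K4me3 log2 fold change for Tspan8 was -0.42 ± 0.18, with an unadjusted p of 0.0217 and an edgeR adjusted p of 0.779, and -0.25 without Lgr5+Tspan8- replicate 2 (unadjusted p = 0.213, adjusted p = 1). For H3K27me3 it was -0.28 ± 0.18 (edgeR adjusted p = 0.532).

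Twist2 (Entrez 13345, chr1:91801461-91848034, plus strand), its paralog in dermis and stroma, had 34.4 and 29.4 CPM of H3K4me3 for Lgr5+Tspan8hi, 37.5 and 57.7 for Lgr5+Tspan8-, 29.0 and 50.8 for Lgr5-Tspan8hi and 40.3 and 55.5 CPM for Lgr5-Tspan8- libraries. For Tspan8 the log2 fold change was -0.41 ± 0.20 (unadjusted p = 0.0425, edgeR adjusted p = 0.822), with overlapping groups. It was -0.24 without Lgr5-Tspan8hi replicate 1, -0.25 without Lgr5+Tspan8- replicate 2 and -0.27 without Lgr5-Tspan8- replicate 2 (unadjusted p = 0.237, 0.253 and 0.258, edgeR adjusted p = 0.937, 1 and 1). Its H3K27me3 ranged from 89.7 to 131 CPM, and the log2 fold change was -0.14 ± 0.12 for Tspan8 (95% interval -0.37 to 0.10) and 0.04 ± 0.12 for Lgr5 (-0.20 to 0.28). Among the 3950 genes with 20 to 29 promoter CpGs, the median H3K4me3 was 59.9 CPM and the median H3K27me3 0.294 CPM per kb, and 33.4% had less H3K4me3 than Twist1 and 23.3% less than Twist2.

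Prrx1 (Entrez 18933, chr1:163245119-163315145, minus strand), a homeobox factor of limb and stromal mesenchyme, showed the smallest p of the 10 for Tspan8. H3K4me3 was 38.2 and 56.7 CPM for Lgr5+Tspan8hi, 66.5 and 61.8 for Lgr5+Tspan8-, 45.1 and 65.3 for Lgr5-Tspan8hi and 72.9 and 90.3 CPM for Lgr5-Tspan8- libraries. Within each Lgr5 state the Tspan8hi libraries were below the Tspan8- libraries, although over both states 1 Tspan8hi library lay within the Tspan8- range. Tspan8hi libraries averaged 51.3 ± 12.1 CPM and Tspan8- libraries 72.9 ± 12.5 CPM (SD, n = 4 each). Its log2 fold change was -0.49 ± 0.16 (95% interval -0.81 to -0.17), with an unadjusted p of 0.00302 and an edgeR adjusted p of 0.583. H3K27me3 ranged from 88.7 to 117 CPM, with a log2 fold change of 0.07 ± 0.11 for Tspan8 (edgeR adjusted p = 0.863).

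Fibroblasts, the stromal cells that use Twist and Prrx1 factors, were checked beside these 3 genes. The summed H3K4me3 of 12 fibroblast marker genes was 177 and 169 CPM for Lgr5+Tspan8hi, 192 and 186 for Lgr5+Tspan8-, 153 and 207 for Lgr5-Tspan8hi and 237 and 238 CPM for Lgr5-Tspan8- libraries. Both Lgr5-Tspan8- libraries were highest, a difference that rested mostly on 1 gene: without Dcn the sums were 172 and 179 CPM in Lgr5-Tspan8- libraries and 131 to 170 CPM in the other 6. Dcn, the matrix proteoglycan decorin, had 12.7 and 9.20 CPM for Lgr5+Tspan8hi, 26.8 and 15.6 for Lgr5+Tspan8-, 22.3 and 41.5 for Lgr5-Tspan8hi and 65.4 and 58.9 CPM for Lgr5-Tspan8- libraries, and H3K4me3 at Dcn fell in Lgr5+ cells, at 1 of 12 fibroblast genes (log2 fold change -1.52 ± 0.24, edgeR adjusted p = 0.000145). Pdgfra and Col1a1 averaged 34.3 and 30.8 CPM with no such order. For Lgr5 and H3K4me3, 0.0421% of all genes passed. None of the 12 fibroblast genes was at 0 in all libraries, and their part in the Twist1, Twist2 and Prrx1 values was not tested.

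No factor gene passed the threshold of an adjusted p under 0.05 in any of the 8 comparisons (edgeR's quasi-likelihood test with Benjamini-Hochberg adjustment over all genes tested). For H3K4me3 and Tspan8, 0 of 9 passed, where 0.0473% of all 19009 genes did, and 5 of 9 had an unadjusted p under 0.05, where 5.90% of all genes did. These 5 were Snai1 and Zeb2, with higher values in Tspan8hi, and Twist1, Twist2 and Prrx1, with lower ones. For Lgr5, 0 of 9 passed (0.0421% of all genes) and Zeb1 alone had an unadjusted p under 0.05 (4.98% of all genes). For the interaction, 0 of 9 passed (0% of all genes) and 2 of 9 had an unadjusted p under 0.05 (4.20%), and for any difference among the 4 subpopulations 0 of 9 passed (0.0894%) and 3 of 9 had an unadjusted p under 0.05 (5.27%).

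For H3K27me3, 0 of 10 passed for Tspan8, where 0.335% of all 22099 genes did, and 0 of 10 had an unadjusted p under 0.05, where 12.9% of all genes did. For Lgr5, 0 of 10 passed (0.0407% of all genes) and 1 of 10, Snai2, had an unadjusted p under 0.05 (7.19%). For the interaction 0 of 10 passed (0.00905%) and 2 of 10 had an unadjusted p under 0.05 (5.50%). For any difference 0 of 10 passed (0.529%) and 1 of 10 had an unadjusted p under 0.05 (11.1%). DESeq2 and limma-voom also called 0 of the 10 in every comparison.

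**Figure D5:**
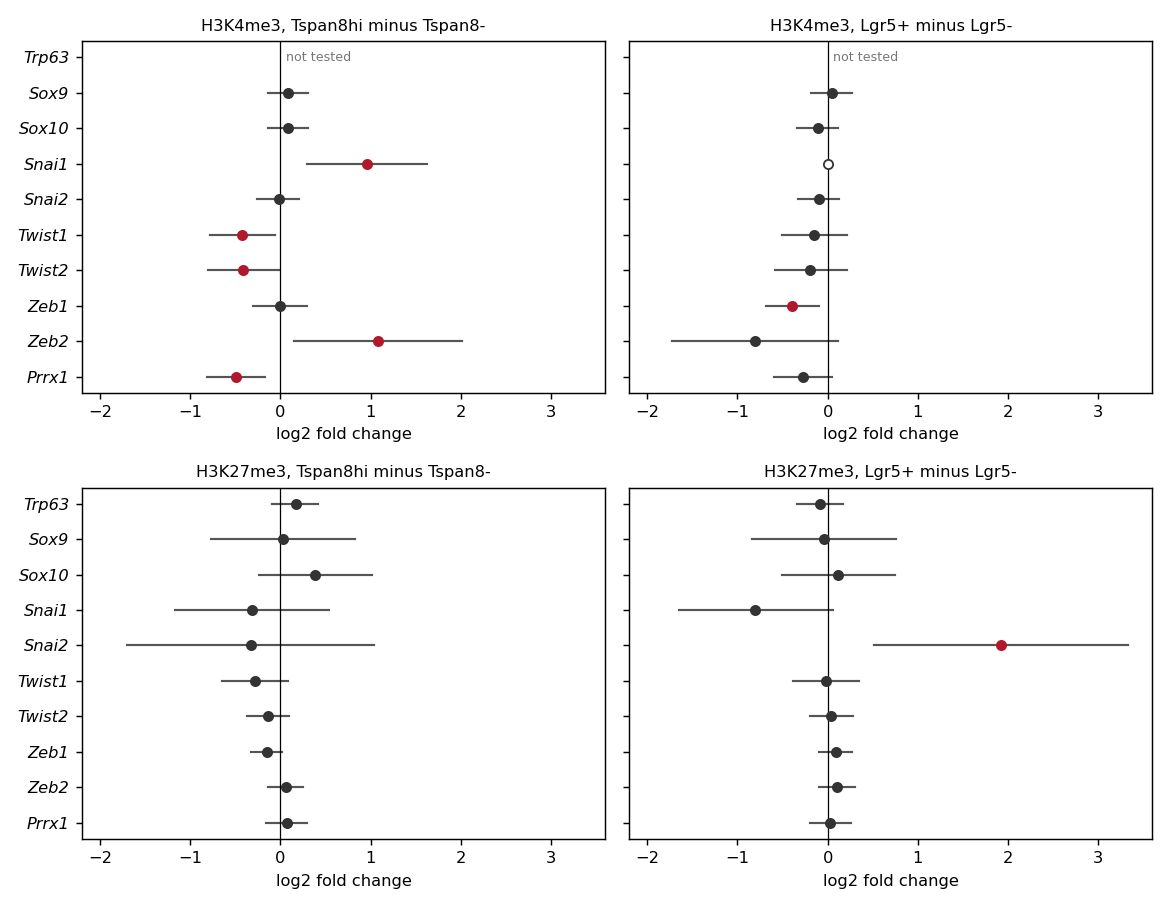
Log2 fold changes of H3K4me3 (top) and H3K27me3 (bottom) at the 10 factors for Tspan8hi minus Tspan8- (left) and Lgr5+ minus Lgr5- (right), with 95% intervals from edgeR on 8 libraries per mark. Red points have an unadjusted p under 0.05 and none passed over all genes. The open circle (Snai1, Lgr5) is shown without an interval. Its fold change was so near 0 (unadjusted p = 0.999 in edgeR) that the SE, derived from the fold change and its F statistic, is unreliable. Trp63 was not tested for H3K4me3.

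Among 25 other factors known in this transition, a list chosen with earlier results of these data known, 1 passed for Tspan8 or Lgr5. Of all genes, 0.0473% passed for Tspan8 and 0.0421% for Lgr5 in H3K4me3, and 0.335% and 0.0407% in H3K27me3. Tbx2 (chromosome 11), a T-box repressor, had 62.4 and 39.3 CPM of H3K4me3 for Lgr5+Tspan8hi, 61.8 and 65.9 for Lgr5+Tspan8-, 86.1 and 62.2 for Lgr5-Tspan8hi and 116 and 144 CPM for Lgr5-Tspan8- libraries. Its H3K27me3 was 93.6 and 105 CPM for Lgr5+Tspan8hi, 81.6 and 72.6 for Lgr5+Tspan8-, 81.1 and 100 for Lgr5-Tspan8hi and 33.4 and 27.5 CPM for Lgr5-Tspan8- libraries. The Lgr5-Tspan8- pair was the highest for H3K4me3 and the lowest for H3K27me3. H3K4me3 fell in Lgr5+ cells (log2 difference -0.79 ± 0.15, edgeR adjusted p = 0.00322), a call that ends without Lgr5+Tspan8hi replicate 2 (adjusted p = 0.128), Lgr5-Tspan8hi replicate 1 (0.0746) or Lgr5-Tspan8- replicate 2 (0.239). H3K27me3 rose in Tspan8hi cells by 0.93 ± 0.12 and in Lgr5+ cells by 0.73 ± 0.12 (edgeR adjusted p = 0.00036 and 0.0113), and the Lgr5 call ends without Lgr5+Tspan8hi replicate 2 (0.129) or either Lgr5+Tspan8- replicate (0.272 and 0.0656). These differences average over both states of the other marker, and they were not equal in the 2 states. The H3K27me3 interaction was -1.21 ± 0.24 on the log2 scale (unadjusted p = 3.88e-05 in edgeR) and did not pass (adjusted p = 0.159). Within Tspan8hi cells the Lgr5+ and Lgr5- ranges overlapped in both marks. The non-coding gene 2610027K06Rik starts within 2 kb of Tbx2.

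Of 22 junction and polarity genes that Snail and Zeb factors repress, also chosen with earlier results known, Ocln alone passed. It passed for H3K27me3, where 0.335% of all genes did for Tspan8 and 0.0407% for Lgr5. Ocln, which encodes the tight junction protein occludin, had 46.5 and 39.5 CPM of H3K27me3 for Lgr5+Tspan8hi, 69.3 and 61.6 for Lgr5+Tspan8-, 56.8 and 63.6 for Lgr5-Tspan8hi and 124 and 128 CPM for Lgr5-Tspan8- libraries. Lgr5-Tspan8- libraries were the highest and Lgr5+Tspan8hi libraries the lowest. H3K27me3 fell by 0.88 on the log2 scale in Tspan8hi (SE 0.12, edgeR adjusted p = 0.00036) and by 0.72 in Lgr5+ cells (SE 0.12, edgeR adjusted p = 0.0102), the Lgr5 call ending without Lgr5+Tspan8hi replicate 2 (0.129) or either Lgr5+Tspan8- replicate (0.110 and 0.246). Ocln H3K4me3 was 76.4 to 115 CPM and did not pass (log2 fold change 0.37 ± 0.13 for Lgr5, edgeR adjusted p = 0.926). Over the list, the median H3K27me3 log2 fold change was 0.08 for Tspan8 (all genes 0.021) and -0.13 for Lgr5 (all genes -0.006).

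The other lists are given by counts, and 0.529% of all genes passed for any H3K27me3 difference. Of 15 epithelial guardian factors such as the Grhl, Ovol and Elf genes, none passed for Tspan8 or Lgr5, and Grhl1 passed for any H3K27me3 difference (76.8 and 86.4 CPM for Lgr5+Tspan8hi, 76.5 and 63.9 for Lgr5+Tspan8-, 56.1 and 60.6 for Lgr5-Tspan8hi and 46.3 and 40.3 CPM for Lgr5-Tspan8-, edgeR adjusted p = 0.0472). Id1, an inhibitor of helix-loop-helix factors in the list of other transition factors, passed for the same test (edgeR adjusted p = 0.0351) on 0.379 to 8.03 CPM. Mylk, the myosin light chain kinase gene, was 1 of 15 contractile genes to pass for any H3K27me3 difference (edgeR adjusted p = 0.0327), with 163 CPM in Lgr5+Tspan8hi replicate 1. The calls of Grhl1, Id1 and Mylk end without that library (adjusted p = 0.138, 0.0588 and 0.399) and without other single libraries. With all libraries kept, the Id1 call also ends under limma-voom (adjusted p = 0.119) and the Grhl1 call under RLE scaling (0.0502). Of 22 basal identity genes, 0 passed for Tspan8 in either mark, and their median log2 fold change was -0.02 for H3K4me3 (all genes -0.0021) and 0.24 for H3K27me3 (all genes 0.021), with 20 of 22 above 0 for H3K27me3, where 47.3% of all genes were below 0. The 15 contractile genes had medians of -0.15 for H3K4me3, with 13 below 0 (50.4% of all genes), and of 0.37 for H3K27me3, with 13 above 0, and 0 passed for Tspan8. For the interaction, the H3K27me3 medians were 0.68 for basal and 0.94 for contractile genes (all genes 0.0011), and 0 passed. Summed basal H3K27me3 was 725 and 544 CPM for Lgr5+Tspan8hi and 449 and 416 for Lgr5+Tspan8- libraries. In Lgr5- cells the sums overlapped, at 537 and 488 CPM in Tspan8hi and 607 and 421 in Tspan8- libraries.

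Of 20 mesenchymal effector genes such as Vim, Fn1 and Cdh2, 19 were tested in each mark and 0 passed in any comparison. Their median log2 fold change for Tspan8 was -0.09 for H3K4me3 (all genes -0.0021) and 0.16 for H3K27me3 (all genes 0.021). Of 25 signal genes of the TGF-beta, BMP, Notch and Wnt pathways 0 passed. Their Tspan8 medians were -0.03 for H3K4me3 and 0.19 for H3K27me3. For H3K27me3, 21 of 25 were above 0, where 47.3% of all genes were below 0. Of the 6 SoxE and SoxD genes and the 3 p53 family genes 0 passed in either mark, and the same held for the endothelial, immune, pericyte, Schwann and luminal lists.

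Where a list had no gene past the threshold, the gene with its smallest p was as follows, with log2 fold change, SE and edgeR adjusted p. For Tspan8 and H3K4me3, Hgf, a ligand of the Met receptor, was at -0.65 ± 0.16 (adjusted p = 0.110), Tagln, a smooth muscle actin-binding protein, at -0.50 ± 0.13 (0.152) and Tbx2 at -0.57 ± 0.15 (0.141). Lower in rank were the mesenchymal cadherin gene Cdh11 (-0.34 ± 0.14), the claudin gene Cldn7 (0.45 ± 0.20), the epithelial factor gene Elf3 (0.58 ± 0.22), the hemidesmosome collagen gene Col17a1 (0.28 ± 0.15), Sox5, Trp53 and Mir200c, with adjusted p from 0.730 to 0.961. For Tspan8 and H3K27me3 they were the fibronectin gene Fn1 (-0.41 ± 0.11, adjusted p = 0.0984), the luminal factor gene Foxa1 (-0.40 ± 0.12, 0.124), Mylk (0.38 ± 0.11, 0.130), the receptor gene Notch1 (-0.59 ± 0.19, 0.178), Sox6 (-0.23 ± 0.08, 0.184) and Dst, a hemidesmosome gene (0.29 ± 0.11, 0.234). For Lgr5, Sox5, a SoxD relative of Sox9, had the smallest p of its family in both marks, at -0.57 ± 0.17 for H3K4me3 (adjusted p = 0.653) and 0.36 ± 0.09 for H3K27me3 (0.182). Other lists had Oxtr, Postn, Ocln, Grhl3, Tcf7l1, Trp73 and Mir203 for H3K4me3 (adjusted p from 0.926 to 0.999) and Grhl1 (0.0704), Tnc and Notch1 (0.285 each), Myocd (0.662), Krt15 (0.683) and Trp73 (0.812) for H3K27me3.

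Among lists of other cell types the smallest p for Tspan8 and H3K4me3 was that of Dcn (-0.97 ± 0.24, edgeR adjusted p = 0.123), then Des, L1cam, Sox17, Coro1a and Kit (0.609 to 0.862). For Tspan8 and H3K27me3 it was that of Col6a3 (-0.38 ± 0.11, adjusted p = 0.116), then Foxa1, Kcnj8, L1cam, Cd52 and Kdr (0.124 to 0.507). For Lgr5 the genes named from these lists were Wnt4, Pmp22, Sox18, Kcnj8 and Cd68 for H3K4me3 (0.971 to 0.979) and Cdh19 (0.55 ± 0.13, 0.124), Wnt4, Sox17, Rgs5 and Col3a1 (0.383 to 0.612) for H3K27me3. The Tspan8 median of the factor genes themselves was 0.00 for H3K4me3 (all genes -0.0021) and -0.06 for H3K27me3 (all genes 0.021). In Lgr5+Tspan8hi replicate 1 the 22 basal identity genes had a summed H3K27me3 of 725 CPM, against 416 to 607 CPM in the other 7 libraries, and a summed H3K4me3 of 1700 CPM, against 1770 to 2100 CPM in the other 7. Its summed H3K27me3 at the 15 contractile genes was 526 CPM, against 313 to 414 CPM in the others. Summed H3K4me3 at the contractile genes was 1220 CPM there, against 1260 to 1490 CPM in the others. The marks come from separate ChIP libraries of this replicate. Its H3K27me3 library was the highest, and its H3K4me3 library the lowest, at both lists. Their part in the list medians was not tested.

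Genes whose log2 CPM followed the basal factors most closely over the 8 libraries were found by Pearson's r among genes with at least 20 CPM, as a description. For Snai2 H3K4me3 they were Rasl10a (r = 0.980), Csf2ra (0.972) and Lrba (0.968) of 13859 genes compared. For Sox10 H3K4me3 they were Gm10863 (r = 0.986), its neighbour, then Fam171a1 (0.977) and N4bp2l1 (0.975). For Trp63 H3K27me3 they were Tcf7l1 (r = 0.984), Ptn (0.983) and Zfp704 (0.978) of 7998 genes. For Snai2 H3K27me3 they were Dytn, Cdh7 and Gm20043 (r from 0.935 to 0.960) and for Sox10 H3K27me3 Akap7, Reck and Akap12 (r from 0.927 to 0.954). All 8 points share library depth and normalisation, and the highest of so many correlations over 8 libraries is high by selection.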

How the data were processed

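The authors deposited 1 table per library with raw read counts per Entrez gene. Per the submitters' processing notes, reads were counted with featureCounts on the mm10 genome; the sources used here do not give the aligner, versions, counted region or duplicate removal. The 16 ChIP libraries (2 per mark and subpopulation) were used, and the 8 input samples were not analysed here. Genes were matched to RefSeq symbols and GRCm38.p6 coordinates by Entrez ID (25189 of 27080 matched).

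Per mark, edgeR 4.0.16 (R 4.3.3) was fitted to 8 libraries with filterByExpr (19009 and 22099 genes kept), TMM scaling and robust quasi-likelihood F tests. Comparisons were Tspan8hi minus Tspan8- over both Lgr5 states, Lgr5+ minus Lgr5- over both Tspan8 states, their interaction and any difference, with Benjamini-Hochberg adjustment at 0.05. CPM used library totals. The biological coefficient of variation was 16.0% for H3K4me3 and 16.8% for H3K27me3. Replicate libraries differed by more than sampling noise (chi-square per degree of freedom 2.90 to 5.43), and none was merged as a repeat of another, although this does not show that they are separate biological samples. Alternatives were RLE scaling, totals alone, loess offsets, 2 other filters, DESeq2 1.42.0, limma-voom 3.58.1, a replicate block and leaving out each library. The code was tested on simulated counts.

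The 10 genes and 16 gene lists were chosen with earlier results of these data known. Named genes are the 10 factors, the sorting genes, up to 4 genes per list past the threshold or else, for Tspan8 and Lgr5, the gene with the smallest p, and the 3 genes most correlated with Trp63, Snai2 and Sox10; some genes that fall under this rule are not reported here. Intervals and limits for counts of 0 cover counting error only.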

Additional observations from a re-analysis of the deposited data

Results flagged for a closer look

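Within each set of 4 libraries on one side of a comparison, a value was looked at again where its gap to the nearest library was large for the set's range (Dixon's test at the 95% level). Of 88 sets, 8 stood out, and chance gives about 1 in 20. At Snai2, H3K4me3 was 108 CPM in Lgr5+Tspan8hi replicate 1, against 140 to 146 CPM in the other Lgr5+ libraries, and 163 CPM in Lgr5-Tspan8hi replicate 1, against 138 to 141 CPM in the other Lgr5- libraries. Snai2 H3K27me3 was 0.861 CPM in Lgr5-Tspan8- replicate 2, against 1.73 to 1.84 CPM in the other Tspan8- libraries. Trp63 H3K4me3 was 1.43 CPM in Lgr5+Tspan8- replicate 1, on 4 reads, against 2.04 to 2.15 CPM in the other Lgr5+ libraries. Trp63 H3K27me3 was 106 CPM in Lgr5-Tspan8- replicate 1, against 68.1 to 73.5 CPM in the other Tspan8- libraries.

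Lgr5+Tspan8hi replicate 2 was high for H3K27me3 at Twist1, with 26.8 CPM against 19 to 19.3 CPM in the other Tspan8hi libraries, and at Prrx1, with 117 CPM against 106 to 107 CPM. The effective depth of the H3K27me3 library of Lgr5-Tspan8hi replicate 1 was 31.1%, against 59.3% to 64.6% in the other Tspan8hi libraries.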

How the results depend on the processing

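None of the 10 factor genes passed under any alternative or with any 1 library left out, and the log2 fold changes named here on an unadjusted p kept their sign in every setting. The smallest adjusted p of a factor gene was 0.0541 (Prrx1 H3K4me3, Tspan8, without Lgr5-Tspan8hi replicate 2). For H3K4me3 the count of genes past the threshold was 5 under DESeq2 for Lgr5 (8 as reported), 2 under limma-voom for the interaction (0) and 31 for any difference (17). For H3K27me3 and Tspan8 (74) it was 312 without a filter, 136 with a mean of at least 5 CPM, 476 under DESeq2, 294 under limma-voom and 136 with loess offsets against reads per kb. For Lgr5 (9) it was 42 without a filter, 71 under DESeq2, 47 under limma-voom, 14 with loess offsets and 62 with those against reads per kb. For the interaction (2) it was 15, 12 and 7 without a filter, under DESeq2 and with reads per kb, and for any difference (117) it was 341, 385 and 206 in the same settings and 311 under limma-voom. Tspan8 H3K27me3 calls were 21 higher and 53 lower in Tspan8hi as reported, 36 and 28 with totals alone and 49 and 38 with loess offsets; the cause was not tested.

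With 1 library left out, counts for Tspan8, Lgr5, interaction and any difference ran from 1 to 105, 1 to 14, 0 to 15 and 3 to 97 for H3K4me3, and from 13 to 1240, 3 to 165, 0 to 109 and 38 to 979 for H3K27me3. The H3K27me3 Tspan8 count was highest without Lgr5-Tspan8- replicate 1 and lowest without Lgr5+Tspan8- replicate 1, and the H3K4me3 count was 105 without Lgr5-Tspan8hi replicate 2. The effective depth difference ran from -52.7 to -38.1 percentage points for H3K4me3 and from -25.4 to -14.2 for H3K27me3.

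Libraries with the same replicate number were not treated as paired, and the labels do not say whether they were. Their deviations correlated from -0.0379 to 0.136, which cannot exclude a shared batch. With the replicate number as a block, H3K4me3 counts were 13, 8, 0 and 24 in the same order (9, 8, 0 and 17 without it). The H3K27me3 counts were 678, 80, 13 and 670 (74, 9, 2 and 117 without it). In neither mark did a factor gene pass.

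Ranked per gene in place of per kb, the H3K27me3 percentile was 90.8 for Trp63 (41.8 per kb), 38.8 for Sox9 (55.4), 46.0 for Sox10 (51.2), 40.0 for Snai1 (61.9), 24.9 for Snai2 (47.6), 73.1 for Twist1 (98.9), 92.7 for Twist2 (85.8), 98.6 for Zeb1 (85.2), 97.4 for Zeb2 (82.4) and 92.4 for Prrx1 (74.5). Depth limits the lowest values most: H3K4me3 at Trp63 rests on 0 to 9 reads and H3K27me3 at Snai2 on 1 to 34.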
